A study of Mus musculus with 6 samples.

Results

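Dendritic cells (DC) labelled ISG+ DC from tumors of wild-type (WT) mice were compared with CD103+ DC1 from tumors of Rag2-/- mice, using 4 of the 6 bulk RNA sequencing libraries of the study. Members were chosen by their labels alone: replicates 1 and 2 of the WT ISG+ DC group, and replicates 2 and 3 of the CD103+ DC1 group. The other 2 libraries, replicates 2 and 3 of Rag2-/- ISG+ DC, serve as an intermediate reference, because they share the host genotype with the DC1 and the population name with the WT cells. All 3 groups came from C57BL/6 mice in which MC57-SIY, a fibrosarcoma line carrying the model peptide antigen SIY, had grown under the skin of the flank for 7 days. Tumors were pooled and dissociated with enzymes, and live cells were sorted by flow cytometry. Apart from the tumor no treatment is named, and the age and sex of the mice, the number of tumors in a pool, the sort gates and the part of Rag2 that the allele lacks are not stated in the labels. Hosts labelled WT have an intact Rag2 gene, whereas Rag2-/- hosts cannot rearrange antigen receptor genes and so lack mature T and B cells, while they keep NK cells and myeloid cells. Host and population therefore differ together between the WT ISG+ DC and the DC1, and their parts in any difference cannot be told apart. Each group holds 2 libraries from separate experiments, and p-values measure the spread between those.

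DC1 are the conventional DC that take up dead cells through the receptor CLEC9A, carry the chemokine receptor XCR1 and cross-present antigen to CD8+ T cells. They arise from FLT3-dependent precursors under the transcription factors IRF8 and BATF3, and in tissues many of them carry CD103. CD11b+ cells of tumors include another conventional lineage, which depends on IRF4 and carries SIRPA, and cells that descend from monocytes under CSF1R. ISG usually stands for interferon-stimulated gene, though the labels do not spell it out. Type I interferon induces such genes through interferon-stimulated response elements (ISRE), while interferon-gamma, made mainly by T and NK cells, acts largely through gamma-activated sites (GAS) and secondary factors.

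The genes below, with contrasting levels in these cells, are shown by the 250 bases before their start sites, where interferon elements such as those named above can lie. Bases further out were not searched, so a window without a match does not show that a gene lacks such an element. The windows are RefSeq sequences of GRCm38.p6, on the strand of the gene, with matches to the ISRE pattern (GAAA, any 2 bases, GAAA) in capitals. A match on the opposite strand appears in the printed sequence as its reverse complement (TTTC, any 2 bases, TTTC). Both strands were searched, also for the GAS pattern (TTC, any 3 bases, GAA), which none of these windows held, so no matches of the 2 patterns overlapped. Ifit3 and Ifit1 were raised in Rag2-/- ISG+ DC and not called in WT ISG+ DC. Gbp2 rose furthest in WT ISG+ DC, while Cxcl9 and Anpep were lowest in Rag2-/- ISG+ DC.
Ifit3, chr19:34583279-34583528, plus strand: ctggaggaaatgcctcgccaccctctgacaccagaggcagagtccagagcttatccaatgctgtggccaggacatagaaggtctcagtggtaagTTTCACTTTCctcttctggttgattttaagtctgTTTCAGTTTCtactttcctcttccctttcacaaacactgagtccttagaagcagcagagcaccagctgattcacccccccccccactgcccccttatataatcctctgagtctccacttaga
Ifit1, chr19:34640639-34640888, plus strand: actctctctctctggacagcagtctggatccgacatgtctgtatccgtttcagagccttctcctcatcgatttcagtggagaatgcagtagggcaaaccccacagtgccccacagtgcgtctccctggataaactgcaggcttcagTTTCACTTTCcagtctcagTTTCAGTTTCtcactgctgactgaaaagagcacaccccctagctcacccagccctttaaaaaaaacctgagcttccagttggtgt
Gbp2, chr3:142620413-142620662, plus strand: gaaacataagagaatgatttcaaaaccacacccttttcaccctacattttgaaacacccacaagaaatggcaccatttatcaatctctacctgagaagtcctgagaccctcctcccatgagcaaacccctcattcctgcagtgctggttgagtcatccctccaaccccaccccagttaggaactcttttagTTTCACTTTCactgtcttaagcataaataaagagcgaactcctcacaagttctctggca
Cxcl9, chr5:92328080-92328329, minus strand: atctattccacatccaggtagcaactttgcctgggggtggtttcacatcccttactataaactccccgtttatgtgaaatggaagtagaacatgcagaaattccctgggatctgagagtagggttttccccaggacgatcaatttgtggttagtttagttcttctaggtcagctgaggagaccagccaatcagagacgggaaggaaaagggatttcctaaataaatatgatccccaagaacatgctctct
Anpep, chr7:79848211-79848460, minus strand: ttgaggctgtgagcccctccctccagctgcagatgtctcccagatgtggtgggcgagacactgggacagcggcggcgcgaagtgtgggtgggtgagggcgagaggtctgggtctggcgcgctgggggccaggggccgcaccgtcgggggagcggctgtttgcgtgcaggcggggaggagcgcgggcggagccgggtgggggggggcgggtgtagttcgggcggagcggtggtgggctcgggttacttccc
The ISRE pattern occurred 2 times in the windows of Ifit3 and Ifit1 and 1 time in that of Gbp2, and not in those of Cxcl9 and Anpep. Among all 32851 windows of this length, 2.977% held it and 7.02% held the GAS pattern. A match is a description of letters and not a site that was shown to be bound.

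Per library, the deposited table held 6023510 to 15368616 estimated counts. CD103+ DC1 replicate 3 had the lowest total, and the ribonuclease P transcript Rpph1 held 1.11% of its counts against 0.303% to 0.383% in the other 5. Levels below are CPM, that is, counts scaled to a common library total with TMM factors. They are given for replicates 2 and 3 of CD103+ DC1 and of Rag2-/- ISG+ DC, and for replicates 1 and 2 of WT ISG+ DC, in that order. Spearman correlations over genes, as a description, were 0.768 to 0.831 between WT ISG+ DC and CD103+ DC1 libraries, 0.806 to 0.900 between Rag2-/- ISG+ DC and CD103+ DC1, and 0.882, 0.934 and 0.920 within the DC1, Rag2-/- ISG+ and WT ISG+ pairs. Estimated counts of Rag2 itself were 39 and 11 in the DC1, 40 and 2 in Rag2-/- ISG+ DC and 0 in both WT libraries, so the label WT could not be checked by it, and host names are those of the labels.

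Between WT ISG+ DC and CD103+ DC1, 1209 of 13223 genes tested (9.14%) passed edgeR's quasi-likelihood test at a Benjamini-Hochberg adjusted p under 0.05. Of these, 730 (5.52%) were higher and 479 (3.62%) lower in WT ISG+ DC, 757 differed by over 4-fold, and 1208 had libraries that did not overlap. Without regard to the test, groups did not overlap with WT higher in 25.7% and WT lower in 25.8% of genes. The median log2 difference over all genes was -0.03. Counts of list genes called below are to be read beside the shares of 5.52% higher and 3.62% lower, which some of them lie near. Adjusted p-values below come from this test, differences are log2 values with their standard error (SE), and "rose" and "fell" are written of genes that passed. Beside this, Rag2-/- ISG+ DC differed from the same DC1 in 488 genes (3.69%), of which 374 were higher (2.83%) and 114 lower (0.862%), and WT from Rag2-/- ISG+ DC in 73 genes (0.552%), of which 38 were higher (0.287%) and 35 lower (0.265%) in WT. The comparisons share libraries, so their values are only set side by side. A library left out is named below by group and replicate. The count of 1209 was 2754 without DC1 replicate 2, and ranged from 837 to 1527 with any other library left out. None of the 1209 was called in the other direction in any of these fits.

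The position of WT ISG+ DC was read from the 3 comparisons together. In 683 of the 1209 genes WT ISG+ DC departed from DC1 to the level of the reference: they did not differ from Rag2-/- ISG+ DC by the test, and by no more than 1 on the log2 scale. For this class the reference itself need not differ from DC1 by the test, and over all genes tested it did so in 488. The class is therefore not a set of departures shown for both ISG+ groups. In 56 genes they went beyond the reference, with a further call in the same direction, 30 higher and 26 lower. The other 470 called genes fell in neither class, and 3 of them, Ctnnd2, Gm14446 and Slfn4, were called back toward DC1 relative to the reference. In 7 genes WT ISG+ DC stayed near DC1 while the reference departed. The classes are descriptions and depend on single libraries. With 1 library left out, 335 to 605 of the 683 and 20 to 56 of the 56 kept their class, and 1 to 7 of the 7. In the same fits the whole class beyond the reference held 21 (without Rag2-/- ISG+ replicate 2) to 562 genes (without DC1 replicate 3), and the class near DC1 held 3 (without Rag2-/- ISG+ replicate 3) to 68 (without DC1 replicate 2).

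Most DC1 identity genes were lower in WT ISG+ DC. Of 25 DC1 identity genes tested, 18 were lower than in CD103+ DC1 and 1 was higher, with a median log2 difference of -3.01 against -0.03 over all genes. Xcr1, the receptor for the chemokine XCL1, was at 316 and 231 CPM in CD103+ DC1, 4.55 and 9.08 in Rag2-/- ISG+ DC and 3.07 and 4.62 in WT ISG+ DC. Both ISG+ groups lay far under both DC1 libraries without overlap, a log2 difference of -6.16 ± 0.50 (SE, adjusted p = 0.00011) for the WT cells, or 71.6-fold lower. Itgae, which encodes CD103 and was part of the name of the sorted DC1, was at 324 and 423 CPM in CD103+ DC1, 0.692 and 7.000 in Rag2-/- ISG+ DC and 1.16 and 0.299 in WT ISG+ DC. Because CD103 is in the name of the DC1, its fall of 494-fold is a check of the labels and not a finding. Clec9a, the receptor for dead cells, was at 21.98 and 10.1 CPM in WT ISG+ DC against 408 and 301 in CD103+ DC1 (log2 difference -4.46 ± 0.52 SE, adjusted p = 0.00050). It overlapped the 14.3 and 6.34 CPM of Rag2-/- ISG+ DC. Cd24a, a surface protein used to gate DC1, fell by 4.06 ± 0.35 on the log2 scale (adjusted p = 0.00015). The 1 gene that rose, Cd36, a scavenger receptor for lipids that was chosen after its values were seen, was at 71.2 and 66.3 CPM in CD103+ DC1 and 194 and 291 in WT ISG+ DC (adjusted p = 0.028). Itgae was at a log2 difference from DC1 of -10.24 without WT replicate 1 and -8.32 without WT replicate 2, and Clec9a at -5.14 without WT replicate 1. Cd36 lost its call from DC1 at 1.49 without WT replicate 2 (adjusted p = 0.11).

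Irf8, a factor of the DC1 lineage, was at 1668 and 723 CPM in CD103+ DC1, 135 and 179 in Rag2-/- ISG+ DC and 199 and 219 in WT ISG+ DC. Every ISG+ library lay under both DC1 libraries, and the WT cells differed by -2.52 ± 0.37 (SE, adjusted p = 0.0021) on the log2 scale. Batf3, the partner factor of DC1, was at 31.6 and 17.3 CPM in CD103+ DC1, 8.88 and 10.3 in Rag2-/- ISG+ DC and 16.5 and 16.3 in WT ISG+ DC. WT ISG+ DC lay just under the lower DC1 library, and the difference of -0.58 did not pass (adjusted p = 0.69, 95% interval -2.04 to 0.88). Among 19 genes common to the DC lineage, 8 fell and 4 rose (Itgax, Runx3, Nfil3 and Zeb2) in WT ISG+ DC, with a median of -1.11. The calls of Itgax and Runx3 were lost with any 1 of the 4 ISG+ libraries left out, at log2 differences of 0.99 to 1.06 and 1.16 to 1.19. Flt3, the receptor for the growth factor of DC, was at 490.4 and 330.2 CPM in CD103+ DC1, 145 and 91.3 in Rag2-/- ISG+ DC and 15.8 and 32.4 in WT ISG+ DC. The 3 groups formed steps without overlap, and WT ISG+ DC went beyond the reference, at -4.09 ± 0.44 (SE, adjusted p = 0.00034) from DC1 and -2.29 ± 0.41 (SE, adjusted p = 0.041) from Rag2-/- ISG+ DC. Zbtb46, a transcription factor that marks conventional DC, was at 260.1 and 267 CPM in CD103+ DC1 and 32.2 and 52.3 in WT ISG+ DC (log2 difference -2.64 ± 0.34 SE, adjusted p = 0.00095). Btla, an inhibitory receptor, fell 139-fold to 0.536 and 3.19 CPM. Zeb2, a repressor that acts against the DC1 fate, rose 17.5-fold (log2 difference 4.13 ± 0.27 SE, adjusted p = 4.8e-05), from 60.05 and 75.9 to 1096 and 1285 CPM. Irf8 was at a log2 difference from DC1 of -1.801 without DC1 replicate 2, Flt3 at -4.700 without WT replicate 2, and Btla at -6.33 without WT replicate 1 and -8.88 without WT replicate 2. Flt3 was at a log2 difference from the reference of -2.91 without WT replicate 2. Flt3 lost its call from the reference at -1.92 without Rag2-/- ISG+ replicate 2 (adjusted p = 0.14) and -1.87 without WT replicate 1 (adjusted p = 0.060). The 4 genes of this list that rose were 2 without either WT library or either Rag2-/- ISG+ DC library.

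**Figure D1:**
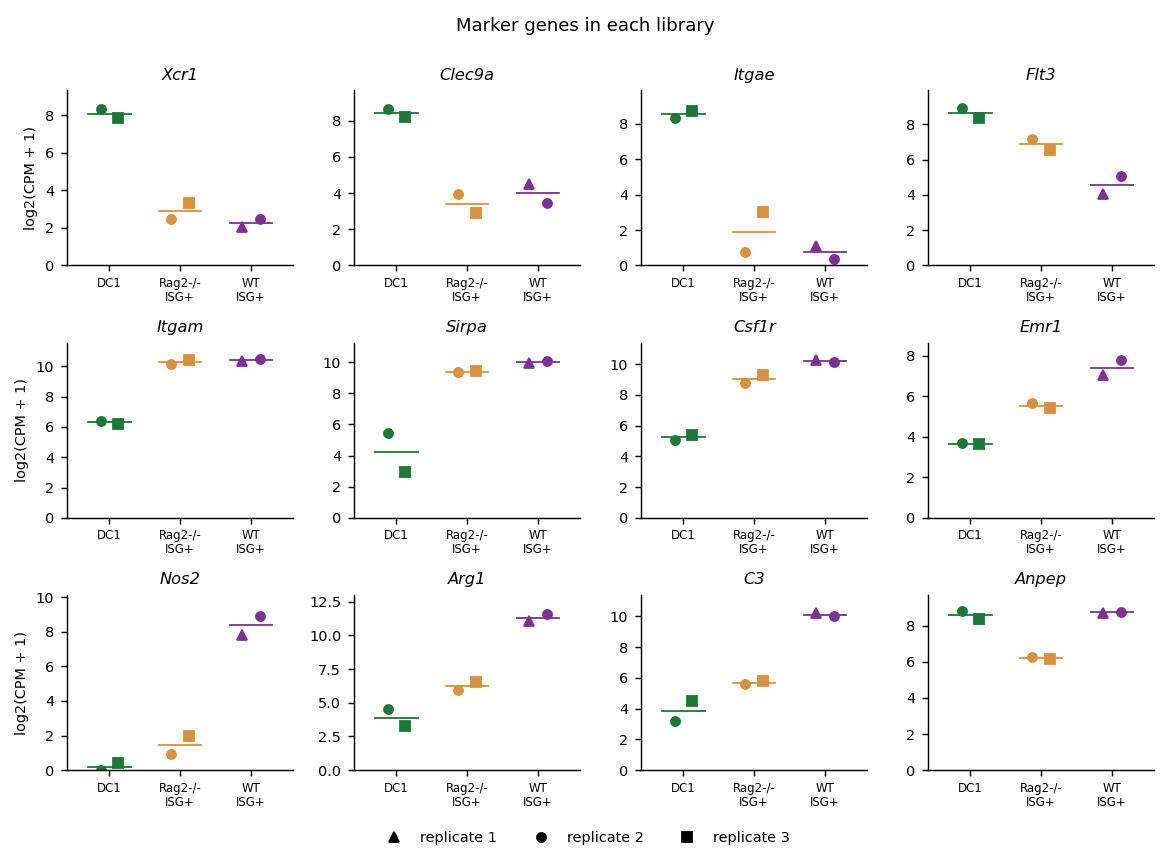
Levels of 12 genes in each of the 6 libraries, on a log2(CPM + 1) axis that starts at 0. Symbols mark the replicate number and the line is the mean of the 2 libraries of a group. Xcr1, Clec9a and Itgae are low in both ISG+ groups, Itgam and Sirpa are high in both, Nos2, Arg1 and C3 are highest in WT ISG+ DC, and Anpep is low in Rag2-/- ISG+ DC alone. The genes Xcr1, Itgam, Csf1r, Nos2 and Anpep are the markers set for this comparison.

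Of 28 genes of CD11b+ DC tested, 18 rose in WT ISG+ DC and none fell (median 3.54), and in Rag2-/- ISG+ DC 17 rose against the same DC1 (median 3.600). This list shares Ccr2, Ly6c2 and Cx3cr1 with the monocyte and macrophage list, and Csf3r and Il1r2 with the neutrophil markers. Of these shared genes, Ccr2, Csf3r and Il1r2 rose in WT ISG+ DC. Esam, Notch2 and Relb were among the members not called. The counts of these lists are therefore not independent. Itgam, which encodes the integrin CD11b, was at 84.8 and 73.6 CPM in CD103+ DC1, 1150.4 and 1376 in Rag2-/- ISG+ DC and 1322 and 1435 in WT ISG+ DC. The ISG+ libraries of both hosts lay in one range far over DC1, and WT ISG+ DC were 17.4-fold higher (log2 difference 4.12 ± 0.25 SE, adjusted p = 4.0e-05). WT and Rag2-/- ISG+ DC differed by 0.13 (95% interval -0.36 to 0.62). Sirpa, the receptor for the signal CD47, was at 42.1 and 6.85 CPM in CD103+ DC1, 656 and 691 in Rag2-/- ISG+ DC and 1001 and 1065 in WT ISG+ DC, a log2 difference of 5.37 ± 0.67 (SE, adjusted p = 0.00078) for WT. The DC1 libraries differed widely here. Irf4, the factor of the CD11b+ lineage, was at 61.1 and 72.4 CPM in WT ISG+ DC and 5.32 and 11.1 in CD103+ DC1 (log2 difference 3.04 ± 0.48 SE, adjusted p = 0.0029). Clec4a1, a C-type lectin, rose 70.2-fold to 183 and 203 CPM, and S100a4, a calcium-binding protein, 17.6-fold. Sirpa was at a log2 difference from DC1 of 7.22 without DC1 replicate 2 and 4.63 without DC1 replicate 3, and Irf4 at 3.66 without DC1 replicate 3.

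Most genes of monocytes and macrophages rose. Of 40 tested, 30 were higher in WT ISG+ DC than in DC1 and none was lower (median 3.14), beside 19 higher in Rag2-/- ISG+ DC (median 1.93). Their summed level was 2699 to 2891 CPM in CD103+ DC1, 9590.5 to 13145 in Rag2-/- ISG+ DC and 21933 to 23708 in WT ISG+ DC. In bulk samples a larger share of such cells and more RNA per cell cannot be told apart. Csf1r, the receptor for M-CSF, was at 32.8 and 40.9 CPM in CD103+ DC1, 436 and 620.1 in Rag2-/- ISG+ DC and 1243 and 1121 in WT ISG+ DC. The groups rose in steps, and WT ISG+ DC were 32.1-fold above DC1 (log2 difference 5.005 ± 0.30 SE, adjusted p = 4.0e-05), while their lead over the reference, 1.16, did not pass (adjusted p = 0.082). Emr1, the macrophage marker F4/80, was at 11.9 and 11.5 CPM in CD103+ DC1, 48.9 and 41.5 in Rag2-/- ISG+ DC and 129 and 220.1 in WT ISG+ DC. Here too WT ISG+ DC lay above both other groups without overlap, at 3.899 ± 0.41 (SE, adjusted p = 0.00032) from DC1 and 1.95 ± 0.37 (SE, adjusted p = 0.052) from the reference, the second of which did not pass. Fcgr1, the IgG receptor CD64, stood at the reference level, with 354 and 419 CPM in Rag2-/- and 299 and 319.8 in WT ISG+ DC against 44.2 and 27.2 in DC1. Lyz2, or lysozyme, rose 16.2-fold and Cd14, a co-receptor for bacterial lipopolysaccharide, 40.6-fold. Cd14 was at a log2 difference from DC1 of 4.76 without DC1 replicate 2 and 6.15 without DC1 replicate 3. Csf1r passed from the reference at 1.16 without DC1 replicate 2 (adjusted p = 0.00033) and 1.16 without DC1 replicate 3 (adjusted p = 4.0e-05), and Emr1 at 1.94 without DC1 replicate 2 (adjusted p = 0.00052), 1.94 without DC1 replicate 3 (adjusted p = 8.9e-05) and 2.28 without WT replicate 1 (adjusted p = 0.021).

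In WT ISG+ DC 28 of 50 C-type lectins and paired receptors rose and 4 fell (Clec9a, Clec1a, Ly75 and Siglecg, median 3.96), 15 of 24 Fc and complement genes rose and none fell (median 2.75), and 17 of 47 sensing genes rose and 1 fell (Tlr3, median 1.11). Clec1a lost its call at a log2 difference of -4.47 without DC1 replicate 2 and at -4.89 without WT replicate 1. Clec4n, or dectin-2, a receptor for fungal mannans, was at 1.73 and 0.343 CPM in CD103+ DC1, 38.3 and 74.01 in Rag2-/- ISG+ DC and 164 and 160.2 in WT ISG+ DC, and Clec4e, or mincle, at 0.997 and 0.856 CPM in CD103+ DC1, 15.2 and 25.4 in Rag2-/- ISG+ DC and 87.3 and 89.7 in WT ISG+ DC. Both were nearly absent from DC1 and highest in both WT libraries, with log2 differences of 7.09 ± 0.66 (SE, adjusted p = 0.00019) and 6.54 ± 0.60 (SE, adjusted p = 0.00017). C3ar1, the receptor for the complement fragment C3a, rose 23.3-fold, from 20.00 and 16.9 to 431 and 430.1 CPM. Tlr2, the receptor for bacterial lipoproteins, rose 23.1-fold, and Tlr8, of the family that reads single-stranded RNA, 87.1-fold. Cybb, the catalytic subunit of the phagocyte oxidase, was at 26.3 and 35.8 CPM in CD103+ DC1, 653 and 792 in Rag2-/- ISG+ DC and 983 and 1109 in WT ISG+ DC (log2 difference 5.08 ± 0.29 SE, adjusted p = 4.0e-05). Both ISG+ groups held it without overlap with DC1. Of 36 chemokine and homing receptors 13 rose and 4 fell, the falls being Xcr1, Itgae and, named after their values were seen, Cxcr3 and Itgal. Tlr8 was at a log2 difference from DC1 of 5.69 without DC1 replicate 2 and 7.35 without DC1 replicate 3. A single remaining DC1 or WT library held under 3 counts, so that no size is given, for Clec4n without DC1 replicate 2. The 17 sensing genes that rose were 11 without WT replicate 2.

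Both main enzymes that use arginine rose in WT ISG+ DC far beyond the reference. Nos2, the inducible nitric oxide synthase, was at 0 and 0.343 CPM in CD103+ DC1, 0.881 and 2.99 in Rag2-/- ISG+ DC and 225 and 481 in WT ISG+ DC. The 2 DC1 libraries held 0 and 2 estimated counts of it, the Rag2-/- ISG+ libraries 14 and 41, and the WT libraries 2523 and 4820. The ratio of WT to DC1 was 3614 with a 95% counting interval of 1000.1 to 29849, and the test gave adjusted p = 0.00015. With either DC1 library left out, the one that stayed held 0 or 2 counts, so that no size is given, and the fitted log2 difference, which depends on the prior count, was 11.63 with all libraries and 10.93 without WT replicate 2. Against Rag2-/- ISG+ DC the log2 difference was 7.52 ± 0.76 (SE, adjusted p = 0.0056). Arg1, or arginase 1, which turns arginine into ornithine and urea, was at 21.7 and 8.56 CPM in CD103+ DC1, 60.5 and 90.7 in Rag2-/- ISG+ DC and 2095 and 3097 in WT ISG+ DC. All 3 groups were apart, and WT ISG+ DC lay 168-fold over DC1 (log2 difference 7.39 ± 0.51 SE, adjusted p = 6.3e-05) and 34.3-fold over the reference (log2 difference 5.102 ± 0.46 SE, adjusted p = 0.0048), which was itself 4.88-fold over DC1. Of 23 genes of arginine and nitric oxide metabolism, 6 rose and 1 fell in WT ISG+ DC (median 0.46), beside 1 and 0 in the reference (Arg1, median 0.24). The shares of all genes tested that rose and fell in WT ISG+ DC were 5.52% and 3.62%. Hif1a, a hypoxia-inducible factor that also acts on these genes, was at 162 and 278 CPM in CD103+ DC1, 348 and 355 in Rag2-/- ISG+ DC and 875 and 814 in WT ISG+ DC (WT against DC1, log2 difference 1.94 ± 0.29 SE, adjusted p = 0.0022). Among the others, all named after their values were seen, the arginine transporter Slc7a2 was at 222 and 289.8 CPM in WT ISG+ DC and 7.71 and 0 in DC1 (log2 difference 5.91 ± 1.18 SE, adjusted p = 0.011). Irg1, which makes itaconate in activated macrophages, was at 92.2 and 124 CPM in WT ISG+ DC and 0.465 and 5.65 in DC1 (log2 difference 5.25 ± 0.99 SE, adjusted p = 0.0079). Odc1, the enzyme that takes ornithine into polyamines, was the 1 that fell (log2 difference -1.27 ± 0.31 SE, adjusted p = 0.029). Arg1 was at a log2 difference from DC1 of 8.23 without DC1 replicate 2, Slc7a2 at 5.06 without DC1 replicate 3, and Irg1 at 4.24 without DC1 replicate 2 and 7.84 without DC1 replicate 3. Odc1 lost its call from DC1 at -1.27 without Rag2-/- ISG+ replicate 2 (adjusted p = 0.052), -1.02 without WT replicate 1 (adjusted p = 0.22) and -1.57 without WT replicate 2 (adjusted p = 0.051). A single remaining DC1 or WT library held under 3 counts, so that no size is given, for Slc7a2 without DC1 replicate 2. Nos2 was at a log2 difference from the reference of 6.88 without Rag2-/- ISG+ replicate 2, 8.63 without Rag2-/- ISG+ replicate 3 and 6.86 without WT replicate 2.

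Among secreted and checkpoint genes, some stood at the reference level and some beyond it. Of 40 cytokine and costimulation genes 11 rose and 1 fell in WT ISG+ DC (median 1.5), and of 24 chemokines 9 rose and none fell (median 1.25). Cd274, the checkpoint ligand PD-L1, was at 102 and 135 CPM in CD103+ DC1, 117 and 130.1 in Rag2-/- ISG+ DC and 499 and 528 in WT ISG+ DC. The reference lay inside the DC1 range, whereas both WT libraries were above all others, 2.12 ± 0.27 (SE, adjusted p = 0.00084) from DC1 and 2.05 ± 0.27 (SE, adjusted p = 0.016) from the reference. Pdcd1lg2, or PD-L2, had the same form, with 27.1 and 8.39 CPM in CD103+ DC1, 10.4 and 10.9 in Rag2-/- ISG+ DC and 133 and 159 in WT ISG+ DC (WT against DC1, log2 difference 3.02 ± 0.54 SE, adjusted p = 0.0059). Vegfa, the vascular growth factor, was at 28.4 and 11.8 CPM in CD103+ DC1, 65.4 and 69.7 in Rag2-/- ISG+ DC and 589.9 and 757 in WT ISG+ DC, which is 33.01-fold above DC1 (log2 difference 5.04 ± 0.43 SE, adjusted p = 0.00015) and 9.97-fold above the reference (log2 difference 3.32 ± 0.40 SE, adjusted p = 0.012). C3, the central complement protein, was at 8.18 and 21.2 CPM in CD103+ DC1, 48.3 and 53.6 in Rag2-/- ISG+ DC and 1167 and 1035 in WT ISG+ DC. Its rise of 6.26 ± 0.46 (SE, adjusted p = 8.5e-05) over DC1 was made mostly beyond the reference (log2 difference 4.43 ± 0.42 SE, adjusted p = 0.0048). Il1rn, the antagonist of the IL-1 receptor, rose 38.7-fold and the chemokine Ccl9 17.96-fold. Cxcl2 and Cxcl3, which attract neutrophils, had 0 counts in both DC1 libraries, while WT ISG+ DC had 60.8 and 51.5 CPM of Cxcl2 and 37.3 and 64.5 CPM of Cxcl3, so they were at least 391-fold and at least 354-fold higher, against a limit of 3 counts over the DC1 group. Il12b, a subunit of IL-12, a cytokine that acts on T cells, was the 1 gene that fell, from 170.0 and 68.3 to 11.4 and 9.18 CPM (log2 difference -3.53 ± 0.55 SE, adjusted p = 0.0028). Pdcd1lg2 was at a log2 difference from DC1 of 4.11 without DC1 replicate 2, Vegfa at 5.82 without DC1 replicate 2, C3 at 7.08 without DC1 replicate 3, Il1rn at 4.67 without DC1 replicate 2 and 6.16 without DC1 replicate 3, and Il12b at -2.74 without DC1 replicate 2. Cd274 lost its call from the reference at 1.98 without Rag2-/- ISG+ replicate 2 (adjusted p = 0.092), and Pdcd1lg2 at 3.74 without Rag2-/- ISG+ replicate 2 (adjusted p = 0.085). The 11 cytokine and costimulation genes that rose were 17 without DC1 replicate 2.

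Of the type I interferon-stimulated genes, some rose in Rag2-/- ISG+ DC, while in WT ISG+ DC their sum lay at the DC1 level. Of 62 tested, 13 rose and 4 fell (Mx1, Trim30a, Slfn5 and Phf11) against DC1 in WT ISG+ DC (median 0.200), whereas 25 rose and none fell in Rag2-/- ISG+ DC (median 0.91). Slfn5 lost its call at log2 differences of -1.16 and -1.17 without WT replicate 1 and without WT replicate 2, and Trim30a at -0.91 to -1.01 without any 1 of the 4 ISG+ libraries. Between the ISG+ groups 7 were lower in WT and none higher. The summed level of the list was 11808 to 12126 CPM in CD103+ DC1, 20426 to 22093 in Rag2-/- ISG+ DC and 11903 to 11967 in WT ISG+ DC. Ifit1, a blocker of viral translation, was at 70.01 and 43.8 CPM in CD103+ DC1, 309.6 and 240.4 in Rag2-/- ISG+ DC and 91.2 and 96.1 in WT ISG+ DC. WT ISG+ DC lay over DC1 without overlap, but the difference of 0.72 did not pass (adjusted p = 0.22), while that of the reference was 2.27 ± 0.33 (SE, adjusted p = 0.0033). Rsad2, or viperin, was at 113 and 67.1 CPM in CD103+ DC1, 356 and 320.2 in Rag2-/- ISG+ DC and 168 and 219.9 in WT ISG+ DC, and WT did not pass (log2 difference 1.103 ± 0.31 SE, adjusted p = 0.054). Isg15, a ubiquitin-like modifier, was at 105 and 151 CPM in CD103+ DC1, 155 and 159 in Rag2-/- ISG+ DC and 68.1 and 96.3 in WT ISG+ DC, with WT lowest but not called (log2 difference -0.64 ± 0.32 SE, adjusted p = 0.28). Mx1, an interferon-induced gene of the GTPase family, was at 532 and 429 CPM in CD103+ DC1, 658 and 594 in Rag2-/- ISG+ DC and 202 and 163 in WT ISG+ DC. Both WT libraries lay under all others, -1.397 ± 0.25 (SE, adjusted p = 0.0058) from DC1 and -1.78 ± 0.25 (SE, adjusted p = 0.016) from the reference, and Phf11, a PHD-finger gene, differed likewise, by -2.88 ± 0.35 (SE, adjusted p = 0.00073) from DC1. Mx1 lost its call from DC1 at -1.26 without WT replicate 2 (adjusted p = 0.067). Ifit1 passed from DC1 at 1.09 without DC1 replicate 2 (adjusted p = 0.013), Isg15 at -0.89 without DC1 replicate 2 (adjusted p = 0.044), and Rsad2 at 1.52 without DC1 replicate 2 (adjusted p = 0.00049). Mx1 lost its call from the reference at -1.704 without Rag2-/- ISG+ replicate 2 (adjusted p = 0.089) and -1.64 without WT replicate 2 (adjusted p = 0.079).

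Some members of that list did rise to the reference level. Cxcl10, a ligand of CXCR3, was at 12.6 and 3.08 CPM in CD103+ DC1, 139 and 105 in Rag2-/- ISG+ DC and 92.1 and 86.4 in WT ISG+ DC (log2 difference 3.46 ± 0.57 SE, adjusted p = 0.0039 for WT against DC1). Ly6a, or Sca-1, rose 7.92-fold in WT and 7.32-fold in Rag2-/- ISG+ DC. Gm14446, an Ifit-like gene that the rule took as one of the smallest p-values of the list, was at 1.66 and 5.995 CPM in CD103+ DC1, 291 and 255 in Rag2-/- ISG+ DC and 33.2 and 43.3 in WT ISG+ DC, so WT ISG+ DC lay between the other groups (log2 difference 3.42 ± 0.53 SE, adjusted p = 0.0028 from DC1, -2.83 ± 0.49 SE, adjusted p = 0.038 from the reference). Members of the Ifit family are near copies of each other, and their counts are uncertain. The 13 that rose were 25 without DC1 replicate 2, and the 4 that fell were 11 and 9 without DC1 replicates 2 and 3, and 2 and 1 without WT replicates 1 and 2. Cxcl10 was at a log2 difference from DC1 of 4.84 without DC1 replicate 2 and 2.84 without DC1 replicate 3, and Gm14446 at 2.66 without DC1 replicate 2 and 4.53 without DC1 replicate 3. Gm14446 lost its call from the reference at -2.74 without Rag2-/- ISG+ replicate 2 (adjusted p = 0.11).

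Part of the interferon-gamma-associated genes rose in WT ISG+ DC. Of 43 tested, 17 rose and 1 fell (Psmb9) in WT ISG+ DC (median 1.69), beside 4 (Gbp2, Gbp7, Gbp9 and Fcgr4) and 2 (Cxcl9 and Psmb9) in Rag2-/- ISG+ DC (median 0.75), and 6 were higher in WT than in Rag2-/- ISG+ DC. The summed level was 3771 to 4711 CPM in CD103+ DC1, 5463 to 6836 in Rag2-/- ISG+ DC and 6999.9 to 8099 in WT ISG+ DC. Gbp2, a guanylate-binding protein that acts against intracellular microbes, was at 56.3 and 31.2 CPM in CD103+ DC1, 201 and 228 in Rag2-/- ISG+ DC and 617 and 874 in WT ISG+ DC. The 3 groups rose in steps without overlap, with WT at 4.08 ± 0.36 (SE, adjusted p = 0.00015) from DC1 and 1.796 ± 0.32 (SE, adjusted p = 0.045) from the reference. Gbp6, of the same family, was at 22.8 and 20.9 CPM in CD103+ DC1, 45.8 and 52.97 in Rag2-/- ISG+ DC and 163 and 197 in WT ISG+ DC (WT against DC1, log2 difference 3.04 ± 0.34 SE, adjusted p = 0.00045). Values of single Gbp genes are uncertain because the family holds near-identical copies. Ciita, the master regulator of MHC class II, was at 553 and 306 CPM in CD103+ DC1, 788 and 654 in Rag2-/- ISG+ DC and 639 and 584 in WT ISG+ DC and did not pass (log2 difference 0.51 ± 0.29 SE, adjusted p = 0.35). In the promoter windows matched in the RefSeq table, 17 of 41 type I genes (41.5%) and 13 of 25 interferon-gamma genes (52.0%) held the ISRE pattern, and 5 (12.2%) and 9 (36.0%) the GAS pattern. Of all single windows, 2.977% and 7.02% held them. A list gene was counted if any of its windows matched, so the shares of genes and of windows are unlike measures. The 17 that rose were 11 without WT replicate 2. Gbp2 lost its call from the reference at 1.71 without Rag2-/- ISG+ replicate 2 (adjusted p = 0.21), 1.89 without Rag2-/- ISG+ replicate 3 (adjusted p = 0.11) and 1.52 without WT replicate 2 (adjusted p = 0.13), and Gbp6 at 1.76 without Rag2-/- ISG+ replicate 2 (adjusted p = 0.27), 1.97 without Rag2-/- ISG+ replicate 3 (adjusted p = 0.16) and 1.71 without WT replicate 2 (adjusted p = 0.19). Ciita passed from DC1 at 0.99 without DC1 replicate 2 (adjusted p = 0.0022).

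**Figure D2:**
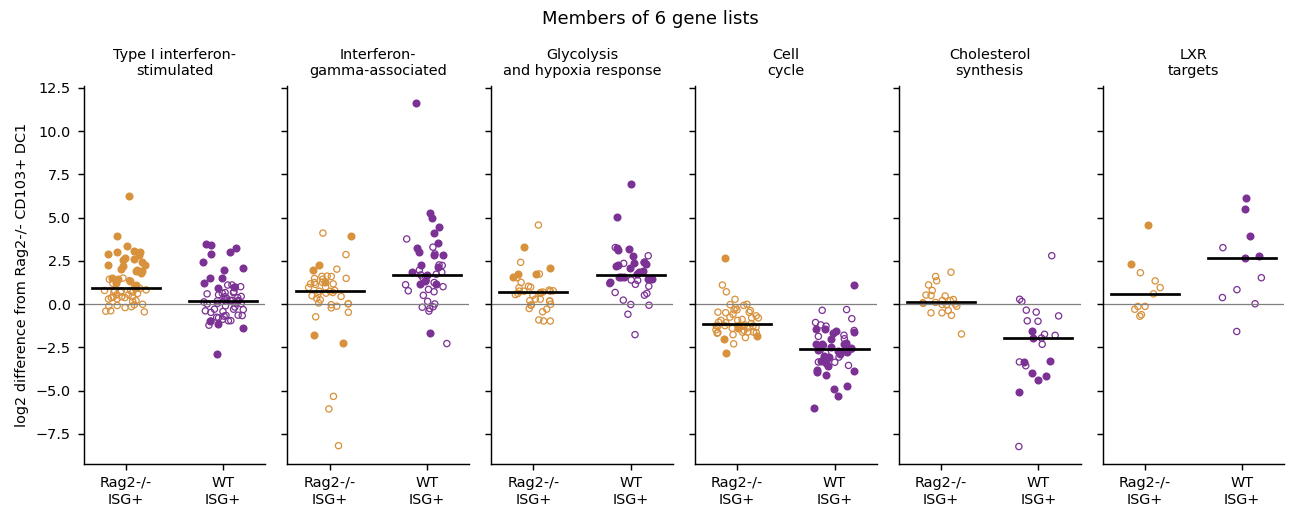
Log2 difference from CD103+ DC1 of each tested member of 6 gene lists, for Rag2-/- ISG+ DC and WT ISG+ DC, which share the DC1 libraries. Filled points passed the test, open points did not, and black lines are medians; points far from 0 come from genes near 0 in a group, where the fitted value is no measured size. The type I interferon median is 0.91 for Rag2-/- and 0.200 for WT ISG+ DC, and the cholesterol synthesis median 0.103 and -1.96.

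In 7 genes WT ISG+ DC resembled DC1 while the reference had departed from them. For 4 genes, Anpep, Cxcl9, Aif1 and Fnip2, Rag2-/- ISG+ DC were low, and for 3, Ifit3, Il2ra and Hivep2, they were high. The class asks WT ISG+ DC to differ from DC1 by no more than 1 on the log2 scale, so closeness is part of the rule and not a finding, and these genes are 0.0529% of all tested. Anpep, or CD13, a surface aminopeptidase of myeloid cells, was at 455 and 332 CPM in CD103+ DC1, 75.9 and 69.9 in Rag2-/- ISG+ DC and 420.1 and 430.3 in WT ISG+ DC. Both WT values lay between the DC1 libraries, at a log2 difference of 0.11 (95% interval -0.45 to 0.67), while the reference was 5.398-fold lower than DC1 (log2 difference -2.43 ± 0.27 SE, adjusted p = 0.00099). Cxcl9, a T cell attractant induced by interferon-gamma, was at 89.6 and 184 CPM in CD103+ DC1, 23.3 and 34.3 in Rag2-/- ISG+ DC and 272 and 194 in WT ISG+ DC. WT ISG+ DC lay just over DC1 (0.77, 95% interval -0.09 to 1.63) and 8.096-fold over the reference. That call against the reference was lost without Rag2-/- ISG+ replicate 2, at a log2 difference of 2.76 (edgeR adjusted p = 0.074). Aif1, the actin-binding protein IBA1, was at 115 and 288 CPM in CD103+ DC1, 27.6 and 29.4 in Rag2-/- ISG+ DC and 134 and 146 in WT ISG+ DC, and Fnip2, a folliculin partner, at 277 and 208 CPM in CD103+ DC1, 76.5 and 76.6 in Rag2-/- ISG+ DC and 216 and 278 in WT ISG+ DC. Of the 7 genes, Aif1 and Ifit3 held the ISRE pattern in their windows and none held the GAS pattern. Among the 38 matched genes of the class beyond the reference, 4 held the ISRE and 2 the GAS pattern. Of all single windows, 2.977% and 7.02% held them, so with 7 genes the lack of a GAS match says little. Ifit3, an antiviral partner of Ifit1, was at 138 and 61.2 CPM in CD103+ DC1, 779 and 647 in Rag2-/- ISG+ DC and 140.2 and 132 in WT ISG+ DC. WT ISG+ DC overlapped the DC1, with a log2 difference of 0.44 (95% interval -0.33 to 1.22), and the reference was 7.13-fold higher (log2 difference 2.83 ± 0.37 SE, adjusted p = 0.0020). Il2ra, the high-affinity chain of the IL-2 receptor, was at 17.03 and 11.5 CPM in CD103+ DC1, 83.7 and 115 in Rag2-/- ISG+ DC and 18.6 and 11.9 in WT ISG+ DC, and Hivep2, a zinc-finger transcription factor, at 204 and 180.2 CPM in CD103+ DC1, 471 and 468 in Rag2-/- ISG+ DC and 197 and 136 in WT ISG+ DC. For these 7 genes the intervals of the difference between WT ISG+ DC and DC1 spanned -1.40 to 1.63. Anpep kept its place with any 1 library left out. Without Rag2-/- ISG+ DC replicate 2 it was the 1 gene of the 7 that did, and without replicate 3 the other 2 were Cxcl9 and Ifit3. Without WT replicate 2 the 4 that kept their place were Aif1, Anpep, Cxcl9 and Ifit3. Cxcl9 passed from DC1 at 1.39 without DC1 replicate 3 (adjusted p = 0.0059), Aif1 at -1.05 without DC1 replicate 2 (adjusted p = 0.012), and Ifit3 at 1.14 without DC1 replicate 2 (adjusted p = 0.0017).

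**Figure D3:**
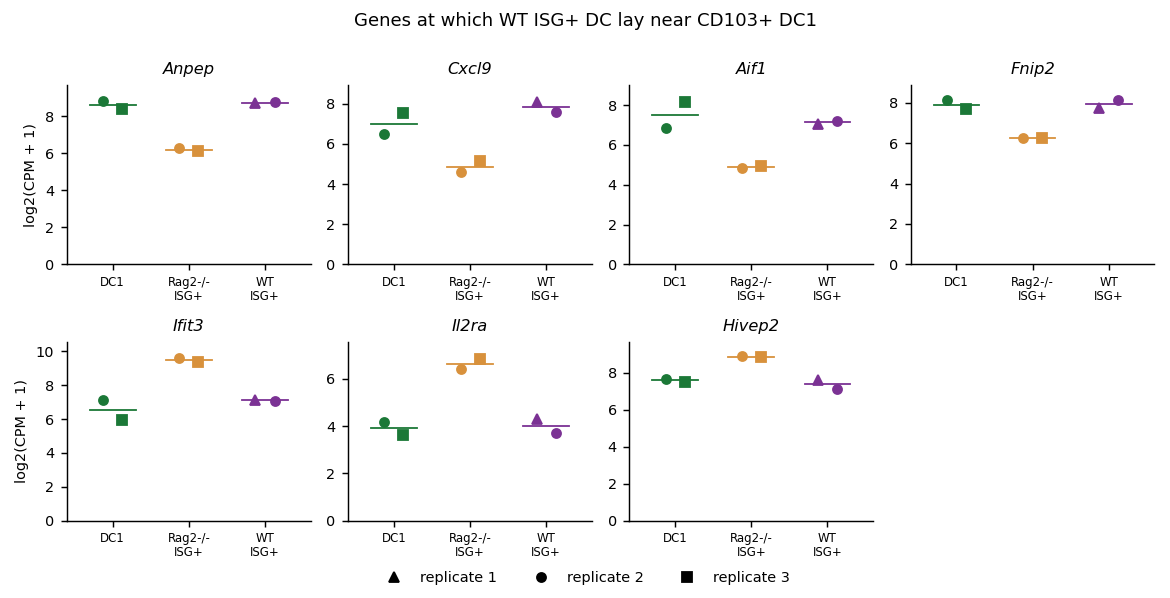
Levels of the 7 genes of the class near DC1 in each library, on a log2(CPM + 1) axis that starts at 0, with the mean of each group as a line. Rag2-/- ISG+ DC stand below the other groups for Anpep, Cxcl9, Aif1 and Fnip2 and above them for Ifit3, Il2ra and Hivep2, as the rule of the class requires.

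Antigen presentation genes differed in part. In MHC class I presentation 5 of 28 genes rose (H2-K1, H2-D1, H2-Q4, H2-Q6 and B2m) and 3 fell (Psmb9, Psme1 and Pdia3), with a median of 0.07. Without WT replicate 1 and without WT replicate 2, H2-D1 lost its call at log2 differences of 1.05 and 0.92, Psme1 at -1.27 and -1.33 and Pdia3 at -0.90 and -0.81, and Psmb9 lost it at -1.59 without WT replicate 2. Pdia3 also lost its call, at -0.85, without either Rag2-/- ISG+ library. H2-K1, a classical heavy chain, was at 828 and 556 CPM in CD103+ DC1, 1643 and 1545 in Rag2-/- ISG+ DC and 1762 and 1811 in WT ISG+ DC (WT against DC1, log2 difference 1.37 ± 0.24 SE, adjusted p = 0.0057), and B2m, the light chain, at 693 and 884 CPM in CD103+ DC1, 1131 and 1277 in Rag2-/- ISG+ DC and 1610.1 and 1491 in WT ISG+ DC (log2 difference 0.98 ± 0.22 SE, adjusted p = 0.022). Classical heavy chains are near copies of each other, so single values are uncertain. The class II list had 6 of 20 genes higher and none lower (median 0.71), and the 6 were lysosomal enzymes rather than class II chains. Among them Ctss, the protease that trims the invariant chain, rose 7.46-fold, from 555 and 553 to 3749.5 and 4521 CPM, Ctsd 13.2-fold and Lgmn 7.66-fold. Of 34 surface and lysosomal peptidases, 15 rose and 1 fell (Dpp4, median 1.61). Mmp19, a metalloproteinase, was at 5.14 and 11.8 CPM in CD103+ DC1, 63.04 and 81.5 in Rag2-/- ISG+ DC and 229.7 and 331 in WT ISG+ DC (log2 difference 5.08 ± 0.47 SE, adjusted p = 0.00019), Ctsa, a lysosomal carboxypeptidase, rose 7.04-fold, and Ctsh, an aminopeptidase, 5.62-fold. The peptidase Anpep was among the 18 genes of this list that did not differ from DC1 by the test. Mmp19 was at a log2 difference from DC1 of 5.78 without DC1 replicate 3. B2m lost its call from DC1 at 0.92 without WT replicate 1 (adjusted p = 0.12) and 1.02 without WT replicate 2 (adjusted p = 0.090). The 5 class I genes that rose were 3 without either WT library, and the 3 that fell were 1 and 0 without WT replicates 1 and 2. The 6 class II genes were 12 without DC1 replicate 2.

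The list on DC maturation and migration showed no common direction, with 7 of 43 genes higher, 6 lower and a median of -0.06. It also holds genes of immature DC, such as Tmem176b, so its counts do not measure maturation. Ccr7, which guides DC to lymph nodes, was at 199.9 and 73.5 CPM in CD103+ DC1, 84.2 and 90.1 in Rag2-/- ISG+ DC and 69.4 and 101 in WT ISG+ DC. The groups overlapped, and the difference of -0.69 did not pass (adjusted p = 0.41). Among those that rose, Socs3, a feedback inhibitor of cytokine signals, was at 38.8 and 46.9 CPM in CD103+ DC1, 150.4 and 97.2 in Rag2-/- ISG+ DC and 335 and 349 in WT ISG+ DC (log2 difference 2.997 ± 0.32 SE, adjusted p = 0.00033) and Tmem176b, an endosomal channel of immature DC, at 18.2 and 11.3 CPM in CD103+ DC1, 118 and 124 in Rag2-/- ISG+ DC and 125 and 198 in WT ISG+ DC (log2 difference 3.44 ± 0.39 SE, adjusted p = 0.00048). Ccr7 passed from DC1 at -1.22 without DC1 replicate 3 (adjusted p = 0.0087). The 7 that rose were 11 without DC1 replicate 2, and the 6 that fell were 12 without DC1 replicate 3 and 3 without WT replicate 1.

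Of 64 transcription factors of DC and macrophages, 21 rose and 3 fell in WT ISG+ DC (median 0.73), beside 11 and 2 (Irf8 and Id2) in the reference. Over all genes tested 5.52% rose and 3.62% fell in WT ISG+ DC, so the number of falls is near that share. Those that fell were Irf8, Zbtb46 and Id2, the last an inhibitor needed for DC1, named after its values were seen. Cebpb, a factor of monocytes and of inflammatory gene programs, was at 32.6 and 16.4 CPM in CD103+ DC1, 85.8 and 121 in Rag2-/- ISG+ DC and 552 and 549 in WT ISG+ DC. Each group lay above the one before, and WT ISG+ DC passed against both DC1 (log2 difference 4.47 ± 0.39 SE, adjusted p = 0.00015) and the reference (log2 difference 2.41 ± 0.35 SE, adjusted p = 0.019). Prdm1, or BLIMP-1, was at 0.996 and 0 CPM in CD103+ DC1, 6.61 and 20.3 in Rag2-/- ISG+ DC and 58.4 and 66.2 in WT ISG+ DC (log2 difference 6.66 ± 1.06 SE, adjusted p = 0.0031 from DC1). Prdm1 was at a log2 difference from DC1 of 5.96 without DC1 replicate 3. A single remaining DC1 or WT library held under 3 counts, so that no size is given, for Prdm1 without DC1 replicate 2. Cebpb lost its call from the reference at 2.19 without Rag2-/- ISG+ replicate 2 (adjusted p = 0.11). The 3 that fell were 6 without DC1 replicate 3.

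Most glycolysis and hypoxia-response genes rose in WT ISG+ DC. Of 38 tested, 22 rose and none fell (median 1.67), whereas 5 rose (Pfkfb4, Eno1, Slc2a1, Slc16a3 and Vegfa) in Rag2-/- ISG+ DC (median 0.69). The summed level was 4055 to 4693 CPM in CD103+ DC1, 5994 to 7255 in the reference and 12429.7 to 15162 in WT ISG+ DC. Eno1, or enolase, a step of glycolysis, was at 361 and 336 CPM in CD103+ DC1, 946 and 1144 in Rag2-/- ISG+ DC and 1551 and 1770.0 in WT ISG+ DC (log2 difference 2.25 ± 0.23 SE, adjusted p = 0.00028). WT libraries lay above both others for it, and for Slc16a3, the lactate exporter, at 16.6 and 12.3 CPM in CD103+ DC1, 50.1 and 74.01 in Rag2-/- ISG+ DC and 137 and 127 in WT ISG+ DC (log2 difference 3.18 ± 0.40 SE, adjusted p = 0.00078). Egln3, an oxygen-sensing hydroxylase, had 9 and 0 counts in DC1 and 39.9 and 54.1 CPM in WT ISG+ DC (log2 difference 6.95 ± 1.21 SE, adjusted p = 0.0051). Hilpda, a lipid droplet protein induced by hypoxia, had 0 and 4 counts in DC1 and 36.6 and 84.2 CPM in WT ISG+ DC against 1.38 and 1.39 in the reference (adjusted p = 0.0034 for WT against DC1). Egln3 was at a log2 difference from DC1 of 6.29 without DC1 replicate 3, and Hilpda at 6.43 without DC1 replicate 2 and 6.95 without WT replicate 2. A single remaining DC1 or WT library held under 3 counts, so that no size is given, for Egln3 without DC1 replicate 2, and for Hilpda without DC1 replicate 3.

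Sterol genes moved in 2 directions in WT ISG+ DC. Cells make cholesterol through enzymes that SREBP-2, the product of Srebf2, switches on, and export it through targets of the oxysterol receptor LXR. Both lists, and the genes of them other than Cyp51 and Abca1, were added after the values were seen. Of 23 synthesis genes, 8 fell in WT ISG+ DC and none rose (median -1.96), none passed in Rag2-/- ISG+ DC (median 0.103), and 4, among them Idi1, Cyp51 and Srebf2, were lower in WT than in Rag2-/- ISG+ DC. Their summed level was 1259.7 to 1405 CPM in CD103+ DC1, 1222 to 1455 in the reference and 351 to 364 in WT ISG+ DC. Cyp51, a demethylase of the pathway, was at 66.8 and 44.9 CPM in CD103+ DC1, 65.7 and 89.6 in Rag2-/- ISG+ DC and 3.04 and 3.19 in WT ISG+ DC. DC1 and the reference overlapped and both WT libraries lay far below, at -4.16 ± 0.48 (SE, adjusted p = 0.00051) from DC1 and -4.63 ± 0.49 (SE, adjusted p = 0.0057) from the reference. Idi1, the isoprenoid isomerase, was at 78.00 and 97.1 CPM in CD103+ DC1, 75.6 and 96.3 in Rag2-/- ISG+ DC and 12.5 and 5.09 in WT ISG+ DC (WT against DC1, log2 difference -3.32 ± 0.49 SE, adjusted p = 0.0022). Sqle, or squalene epoxidase, fell to 0.447 and 5.09 CPM (log2 difference -3.96 ± 0.93 SE, adjusted p = 0.023). Srebf2 itself was at 486 and 256 CPM in CD103+ DC1, 367 and 378 in Rag2-/- ISG+ DC and 104 and 86.8 in WT ISG+ DC, -1.96 ± 0.33 (SE, adjusted p = 0.0041) for WT against DC1. Idi1 was at a log2 difference from DC1 of -4.101 without WT replicate 1, and Sqle at -3.08 without WT replicate 1 and -6.56 without WT replicate 2. Idi1 was at a log2 difference from the reference of -4.08 without WT replicate 1. Srebf2 lost its call from the reference at -1.98 without Rag2-/- ISG+ replicate 2 (adjusted p = 0.090), -1.94 without Rag2-/- ISG+ replicate 3 (adjusted p = 0.051) and -1.84 without WT replicate 2 (adjusted p = 0.085).

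Of 11 LXR targets, 5 rose (Abca1, Abcg1, Apoe, Mertk and Pltp) in WT ISG+ DC and none fell (median 2.67), beside 2 (Abca1 and Pltp) in the reference (median 0.595), and their summed level was 652 to 895, 955 to 1417 and 4526 to 4633 CPM in the 3 groups in the same order. Abca1, a cholesterol exporter, was at 21.01 and 12.2 CPM in CD103+ DC1, 50.04 and 116 in Rag2-/- ISG+ DC and 1053 and 1268 in WT ISG+ DC. It rose 69.1-fold over DC1 and 14.01-fold over the reference (log2 difference 3.81 ± 0.43 SE, adjusted p = 0.0083). Apoe, the apolipoprotein that takes up exported cholesterol, was at 139.8 and 391 CPM in CD103+ DC1, 203 and 281 in Rag2-/- ISG+ DC and 2032 and 1656 in WT ISG+ DC, with the reference inside the DC1 range (WT against DC1, log2 difference 2.798 ± 0.43 SE, adjusted p = 0.0026). Abcg1, another exporter, was at 103 and 33.7 CPM in DC1 and 408 and 470.3 in WT ISG+ DC (log2 difference 2.67 ± 0.46 SE, adjusted p = 0.0047). Of 54 genes of iron, lipid and lysosome handling 24 rose and 2 fell (Sqle among them, median 1.85). Fth1, the ferritin heavy chain that stores iron, was at 400.2 and 530.1 CPM in CD103+ DC1, 839 and 1021 in Rag2-/- ISG+ DC and 2755 and 3280.2 in WT ISG+ DC (log2 difference 2.698 ± 0.25 SE, adjusted p = 0.00019 from DC1, 1.697 ± 0.24 SE, adjusted p = 0.016 from the reference). Hmox1, or heme oxygenase 1, which frees iron from heme and was named after its values were seen, was at 37.1 and 95.1 CPM in CD103+ DC1, 62.4 and 109 in Rag2-/- ISG+ DC and 611 and 733 in WT ISG+ DC (log2 difference 3.35 ± 0.46 SE, adjusted p = 0.0013 from DC1). Apoe was at a log2 difference from DC1 of 3.73 without DC1 replicate 3, Abcg1 at 3.69 without DC1 replicate 2, and Hmox1 at 4.19 without DC1 replicate 3. Abca1 was at a log2 difference from the reference of 4.53 without Rag2-/- ISG+ replicate 3. Fth1 lost its call from the reference at 1.56 without Rag2-/- ISG+ replicate 2 (adjusted p = 0.12).

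**Figure D4:**
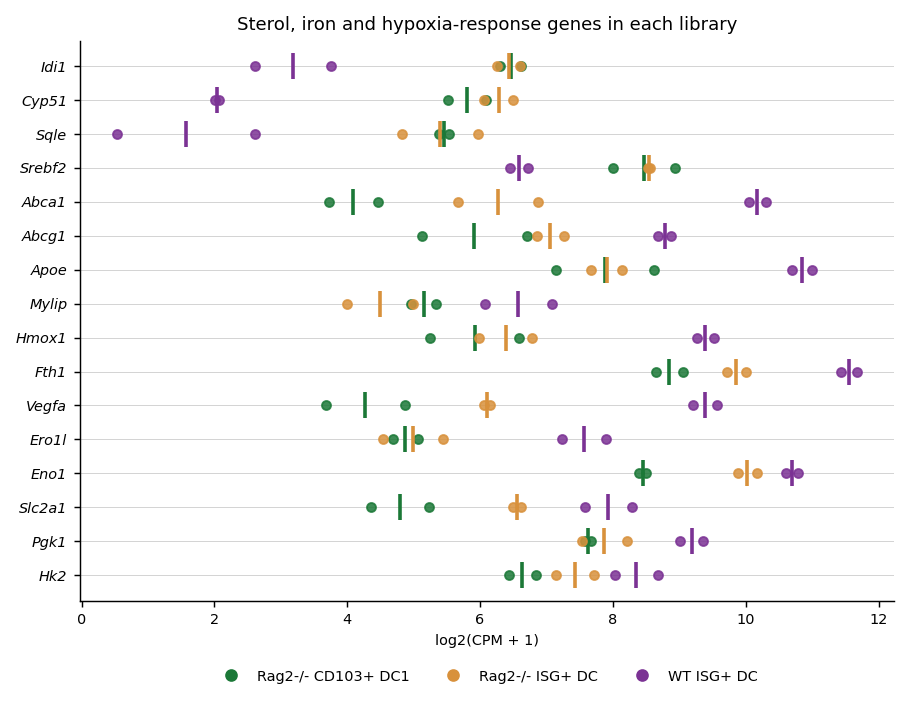
Levels of sterol, iron and hypoxia-response genes in each library (points) with the group mean (bar), on a log2(CPM + 1) axis. WT ISG+ DC lie lowest for the synthesis genes Idi1, Cyp51, Sqle and Srebf2 and highest for the genes from Abca1 down. Genes not described in the text were chosen for the plot after their values were seen.

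Most cell cycle genes were lower in WT ISG+ DC. Of 50 tested, 31 fell and 1 rose (median -2.59), against 4 (Mki67, Top2a, Kif23 and Hmgb2) and 1 (Ccnd2) in the reference (median -1.16). The summed level was 6572 to 9557 CPM in CD103+ DC1, 4206 to 4517 in Rag2-/- ISG+ DC and 1353 to 1838 in WT ISG+ DC, so the groups formed descending steps. Mki67, the proliferation antigen Ki-67, was at 1374 and 2291 CPM in CD103+ DC1, 531 and 492 in Rag2-/- ISG+ DC and 198 and 153 in WT ISG+ DC. WT ISG+ DC lay 10.4-fold under DC1 (log2 difference -3.39 ± 0.30 SE, adjusted p = 0.00016) and 2.92-fold under the reference (log2 difference -1.54 ± 0.28 SE, adjusted p = 0.047). Kif23, a motor of cell division, was at 147 and 198 CPM in CD103+ DC1, 39.3 and 46.4 in Rag2-/- ISG+ DC and 11.4 and 11.6 in WT ISG+ DC (log2 difference -3.904 ± 0.38 SE, adjusted p = 0.00022 from DC1), and Top2a, a topoisomerase of dividing cells, at 558 and 436 CPM in CD103+ DC1, 208 and 172 in Rag2-/- ISG+ DC and 77.7 and 46.3 in WT ISG+ DC (log2 difference -3.003 ± 0.33 SE, adjusted p = 0.00040). Brca1, a DNA repair gene named after its values were seen, was at 74.3 and 106 CPM in CD103+ DC1, 54.1 and 49.8 in Rag2-/- ISG+ DC and 5.18 and 1.597 in WT ISG+ DC (log2 difference -4.72 ± 0.61 SE, adjusted p = 0.00094). The 1 that rose, Ccnd2, a cyclin of the entry phase and also named after its values were seen, was at 164 and 92.2 CPM in CD103+ DC1, 799 and 848 in Rag2-/- ISG+ DC and 317 and 239 in WT ISG+ DC (log2 difference 1.12 ± 0.30 SE, adjusted p = 0.047 from DC1). Histone genes, a list added after the values were seen, fell in 26 of 60 tested (median -2.54) and in 2 (Hist1h2ao and Hist1h2bf) in the reference (median -0.74). They are near-identical copies whose mRNAs mostly lack a polyA tail, and only the list is described. Brca1 was at a log2 difference from DC1 of -5.805 without WT replicate 1 and -4.12 without WT replicate 2. Ccnd2 lost its call from DC1 at 1.12 without Rag2-/- ISG+ replicate 2 (adjusted p = 0.068), 1.12 without Rag2-/- ISG+ replicate 3 (adjusted p = 0.060) and 0.899 without WT replicate 1 (adjusted p = 0.22). Mki67 lost its call from the reference at -1.49 without Rag2-/- ISG+ replicate 2 (adjusted p = 0.15), -1.601 without Rag2-/- ISG+ replicate 3 (adjusted p = 0.072) and -1.38 without WT replicate 2 (adjusted p = 0.19).

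Rises and falls were ranked by fold among genes with at least 3 counts in sum in the lower group. Nos2, Cxcl2, Cxcl3, Nek2 and Bicd1, given elsewhere, held fewer and were not ranked. Plcb1, a phospholipase of receptor signalling, was at 0.264 and 0.173 CPM in CD103+ DC1, 17.7 and 31.3 in Rag2-/- ISG+ DC and 41.6 and 74.5 in WT ISG+ DC (log2 difference 7.89 ± 0.80 SE, adjusted p = 0.00026 from DC1), with just 4 and 1 counts in DC1. Gngt2, a G protein subunit, had 4 and 0 counts in DC1 and 39.6 and 46.9 CPM in WT ISG+ DC (log2 difference 7.86 ± 0.92 SE, adjusted p = 0.00054), and Ikbke, a kinase of interferon induction, 31 and 0 counts and 124 and 169.8 CPM (log2 difference 6.88 ± 0.88 SE, adjusted p = 0.00094). In the reference Gngt2 was at 23.3 and 22.7 CPM and Ikbke at 36.00 and 60.3 CPM. The other 5 of the 8 greatest rises in that ranking, Arg1, Clec4n, Egln3, Prdm1 and Hilpda, are given above. Among the falls, Gcet2, a germinal centre gene also found in DC1, went from 246 and 138 to 0.108 and 0.822 CPM, and Snx22, a sorting nexin, from 164 and 98.1 to 0.768 and 0.212 CPM (log2 difference -7.97 ± 0.71 SE, adjusted p = 0.00016). Sema4f, a semaphorin, went from 70.3 and 57.5 to 0.349 and 0 CPM and Neil3, a DNA repair glycosylase, from 12.2 and 54.8 to 0.447 and 0 CPM, with 13.5 and 13.9 CPM in the reference. Fam190a went from 66.4 and 47.8 to 0 and 0.299 CPM, a ratio of 0.00231 with a 95% counting interval of 0.000476 to 0.00677. Ikbke was at a log2 difference from DC1 of 6.16 without DC1 replicate 3, Snx22 at -7.33 without WT replicate 2, Sema4f at -7.45 without WT replicate 2, Neil3 at -7.84 without DC1 replicate 2, -5.66 without DC1 replicate 3 and -6.200 without WT replicate 2, and Gcet2 at -7.89 without WT replicate 1. A single remaining DC1 or WT library held under 3 counts, so that no size is given, for Gngt2 and Ikbke without DC1 replicate 2, and for Snx22, Sema4f and Neil3 without WT replicate 1, and for Gcet2 without WT replicate 2.

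Further genes also went beyond the reference. Ninj1, which ruptures the membrane of dying cells, was at 3.19 and 3.43 CPM in CD103+ DC1, 5.92 and 2.04 in Rag2-/- ISG+ DC and 97.4 and 93.5 in WT ISG+ DC. DC1 and the reference were both low and overlapped, while WT ISG+ DC were 28.8-fold above DC1 (log2 difference 4.85 ± 0.64 SE, adjusted p = 0.00098). Tnfaip2, induced by TNF, was at 17.5 and 7.54 CPM in CD103+ DC1, 21.8 and 14.8 in Rag2-/- ISG+ DC and 211 and 326 in WT ISG+ DC (log2 difference 4.399 ± 0.49 SE, adjusted p = 0.00041), and the matrix protein Thbs1, also known from monocytes, at 46.8 and 26.4 CPM in CD103+ DC1, 283 and 471 in Rag2-/- ISG+ DC and 1631 and 2242 in WT ISG+ DC (log2 difference 5.72 ± 0.41 SE, adjusted p = 7.0e-05). Csf3r, the G-CSF receptor, was at 8.07 and 4.07 CPM in CD103+ DC1, 22.5 and 12.4 in Rag2-/- ISG+ DC and 126 and 134 in WT ISG+ DC (log2 difference 4.39 ± 0.53 SE, adjusted p = 0.00066). In the other direction Nek2, a mitotic kinase, had 0 counts in both WT libraries and 33.2 and 89.2 CPM in DC1, so it was at least 433-fold lower, and Bicd1, a dynein adaptor, was at least 253-fold lower on the same limit of 3 counts over the group. Tnfaip2 was at a log2 difference from DC1 of 5.14 without DC1 replicate 2. Ninj1 was at a log2 difference from the reference of 5.54 without Rag2-/- ISG+ replicate 2. Thbs1 lost its call from the reference at 2.04 without Rag2-/- ISG+ replicate 2 (adjusted p = 0.092), and Csf3r at 3.398 without Rag2-/- ISG+ replicate 2 (adjusted p = 0.083) and 2.53 without Rag2-/- ISG+ replicate 3 (adjusted p = 0.14).

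**Figure D5:**
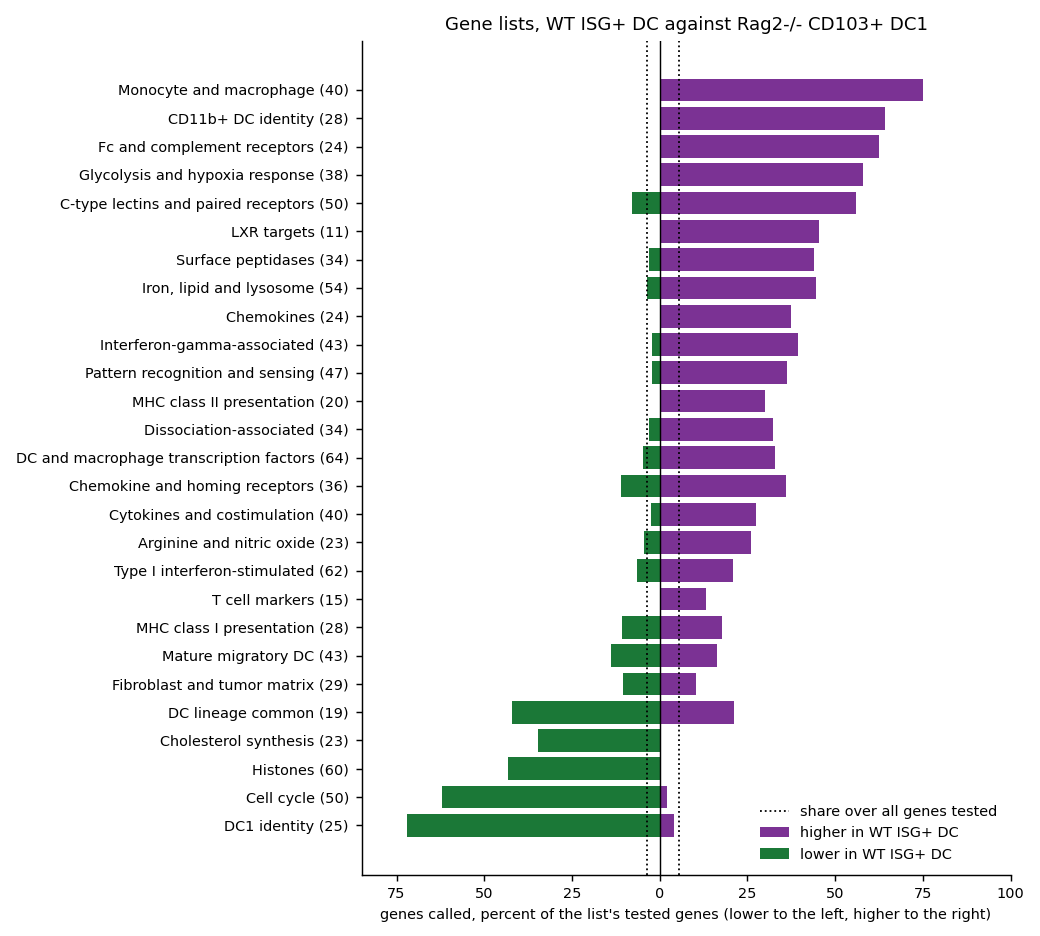
Share of each list's tested genes (number in parentheses) that passed as higher in WT ISG+ DC, to the right, or lower, to the left, against CD103+ DC1, for lists with at least 10 tested genes. Dotted lines give the shares over all 13223 genes, 5.52% higher and 3.62% lower. Monocyte and macrophage genes lead on the right and DC1 identity genes on the left, and type I interferon-stimulated genes have shares in both directions.

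Markers of other cells were checked, with summed levels given as ranges for CD103+ DC1, Rag2-/- ISG+ DC and WT ISG+ DC. Their counts of calls stand beside 5.52% higher and 3.62% lower in WT ISG+ DC over all genes tested. T cell markers were at 32.3 to 72.5, 68.4 to 83.4 and 204 to 241 CPM, and 2 of 15 tested rose in WT ISG+ DC. These were Il7r, also found on monocyte-derived cells, at 113 and 169 CPM against 2.38 and 12.8 in DC1 (log2 difference 4.26 ± 0.70 SE, adjusted p = 0.0039), and Cd2, at 10.9 and 17.2 CPM against 0 counts. Cd3e, a defining chain of the T cell receptor complex, was at or under 0.499 CPM in all 6 libraries and Lat at 0. Cd3g, another chain of that complex, was at 6.26 CPM in WT replicate 1 and at 0 in the other 5. B cell markers were at 30.2 to 40.5, 16.5 to 32.2 and 30.8 to 49.3 CPM, with 1 of 4 lower (Fcrla) and Ms4a1 at 0 in all. Cd22 was at 36.6 and 30.8 CPM in WT ISG+ DC, 27.5 and 16.2 in Rag2-/- ISG+ DC and 5.57 and 14.4 in DC1 and did not pass (adjusted p = 0.14), and Cd79b had 50 counts in WT replicate 1 and 0 in WT replicate 2 and both DC1 libraries. NK cell markers were at 107 to 115, 218 to 222 and 90.97 to 105 CPM with none of 4 called and Klrb1c at 0. Most of each sum was Klrk1, at 111 and 91.1 CPM in DC1, 145 and 158 in Rag2-/- ISG+ DC and 65.1 and 94.3 in WT ISG+ DC. In WT replicate 1, Gzmb had 135 counts (12.1 CPM) and Eomes 55, against 0 and 2 in WT replicate 2. The summed levels of plasmacytoid DC markers were 72.4 to 107, 152 to 197 and 119.5 to 124 CPM with none of 7 called. Neutrophil markers were at 22.8 to 45.6, 183 to 213 and 259.8 to 294 CPM, and 3 of 5 rose, Csf3r, Il1r2 and Trem1, which monocytes also express, while S100a8 was at 0 in all 6. Fibroblast and matrix genes were at 3795 to 4202, 6739 to 7304 and 9679 to 12057 CPM, with 3 of 29 higher (Fn1, Thbs1 and S100a6) and 3 lower (Col5a1, Col6a1 and Pdgfra). Their median log2 difference was 0.16. Much of the sum in WT ISG+ DC came from Fn1, at 3994 and 5685 CPM, and Thbs1, at 1631 and 2242 CPM. In DC1 Fn1 was at 624 and 448 CPM and Thbs1 at 46.8 and 26.4 CPM. Fn1 is also a member of the monocyte and macrophage list. Without WT replicate 2 the calls of Col5a1 and Col6a1 were lost, at log2 differences of -1.72 and -1.90, and that of Pdgfra was lost without DC1 replicate 2, at -5.58. Acta2, an actin of smooth muscle and myofibroblasts, was at 156 CPM in WT replicate 1 and at 0.200 in WT replicate 2. Endothelial and epithelial markers were at 80.5 to 116, 232 to 258 and 236 to 283 CPM with 2 of 8 higher (Pecam1 and Cdh1), of which Pecam1 was at 143 and 115 CPM in WT ISG+ DC, and erythroid markers at 6.85 to 10.3, 7.396 to 65.6 and 29.8 to 30.5 CPM with none of 3 called. Genes that can follow tissue dissociation rose in 11 of 34 and fell in 1 (Hsph1, median 0.696), or in 5 without DC1 replicate 2, with Fos, an immediate-early gene, at 354 and 278 CPM in CD103+ DC1, 340.2 and 454 in Rag2-/- ISG+ DC and 1372 and 1510.2 in WT ISG+ DC (log2 difference 2.19 ± 0.25 SE, adjusted p = 0.00052). Hsph1 lost its call at log2 differences of -1.52 and -1.41 without WT replicate 1 and without WT replicate 2. The part of these cells and of dissociation in the results above was not tested. Il7r was at a log2 difference from DC1 of 3.44 without DC1 replicate 2 and 5.89 without DC1 replicate 3. Cd2 lost its call from DC1 without WT replicate 2 (adjusted p = 0.067). The 3 fibroblast genes that rose were 5 without DC1 replicate 3, and the 3 that fell ranged from 1 without WT replicate 2 to 9 without WT replicate 1. Fos lost its call from the reference at 1.67 without Rag2-/- ISG+ replicate 2 (adjusted p = 0.11).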

How the data were processed

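Bulk RNA of sorted tumor DC was sequenced in 6 libraries of 3 groups, with 2 replicate experiments each. The SMARTer Stranded Total RNAseq Pico kit was used and the libraries were run on a NextSeq sequencer, per the labels' protocols, while the labels give polyA RNA as the molecule, which is not reconciled here. The deposited table holds the estimated counts that RSEM gave the authors per gene; the submitters' processing notes name Bowtie 1.2.3, RSEM 1.3.1 and the build mm9. The annotation, the strand setting and any filter are not given, so overlapping or antisense genes cannot be separated. Of the values, 16.1% were not whole, and they were rounded. No value column of the table went unused. Of 23224 names, 25 were dates made by a spreadsheet. Those standing for Sept3 and March1 were restored, and Sept3 is in the DC1 identity list. The rest kept their date names and are not described as genes.

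With edgeR 4.0.16 in R 4.3.3, 13223 genes passed filterByExpr, and 1 quasi-likelihood fit with TMM factors over all 6 libraries (3 residual degrees of freedom, prior 7.34) gave the 3 comparisons, two-sided, with Benjamini-Hochberg adjustment over all genes tested. All 3 groups share 1 estimate of the spread, as 2 libraries a group allow little alone. The alternatives were DESeq2 1.42.0, its size factors, no filter, the 4 libraries alone, a robust fit, a replicate block, each library left out, and a near limit of 1.5-fold. Where a group is left with 1 library, that library is assumed to vary like the other groups. A fold against a group at 0 uses 3 counts over that group (0.144 CPM in DC1, 0.141 in WT ISG+ DC), and intervals and such limits cover counting error only.

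The groups, the 33 gene lists (1096 of 1113 entries found) and the rule for named genes were chosen with earlier results of these data known, and 3 of the lists (cholesterol synthesis, LXR targets, histones) after the values were seen. Named were the markers, the 8 greatest rises and falls among called genes of at least 10 CPM in the higher group and 3 counts in sum in the lower group, whose groups did not overlap and whose names are not those of predicted genes, up to 3 genes of smallest p in each list, a fixed set of DC and interferon genes, and up to 8 genes of the classes near DC1 and beyond the reference. Genes listed only because a count was 5 or fewer were named after their values were seen. Some genes that the rule names are not reported here. Promoter windows are RefSeq sequences of GRCm38.p6 and were not placed on mm9.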

Additional observations from a re-analysis of the deposited data

How the results depend on the processing

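DESeq2's Wald test called 2082 genes between WT ISG+ DC and DC1 (1080 higher, 1002 lower), 1078 between Rag2-/- ISG+ DC and DC1 and 545 between the ISG+ groups, and the classes at the reference, beyond it and near DC1 held 1150, 407 and 40. Without the low-count filter edgeR called 1890 genes between WT ISG+ DC and DC1 (1018 higher, 872 lower), 1087 between Rag2-/- ISG+ DC and DC1 and 555 between the ISG+ groups, and the classes at the reference, beyond it and near DC1 held 1103, 428 and 50. A fit on only the 4 libraries compared, with fewer degrees of freedom, called 683 (430 higher, 253 lower), and 24 named genes lost their call from DC1 in it: Ace, B2m, Ccnd2, Cdh1, Col5a1, Col6a1, Ctnnd2, Cxcr3, Fabp5, Gm14446, H2-D1, H2-Q6, Hsph1, Itgal, Itgax, Ly75, Odc1, Pdia3, Psme1, Runx3, S100a6, Slfn4, Sqle and Trim30a. The robust fit raised the calls between the ISG+ groups to 138 and the class beyond the reference to 109, and a near limit of 1.5-fold left 418 genes at the reference. With each library left out in turn, the calls between WT ISG+ DC and DC1 numbered 837 to 2754 (521 to 1592 higher, 316 to 1162 lower), those of the reference 278 to 2068 and those between the ISG+ groups 27 to 801, and the 3 classes held 375 to 1893, 21 to 562 and 3 to 68 genes. The cause was not tested. DESeq2's size factors moved none of these counts by over 1.5 times. The share of calls that were higher in WT ranged from 51.9% to 63.0% over the settings, against 60.4%.

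Over genes, replicate 2 minus replicate 3 of CD103+ DC1 did not follow the same difference of Rag2-/- ISG+ DC (correlation -0.00236). The numbers are thus not shown to pair the libraries of these groups, and the WT libraries were not checked in this way. Replicate number 1 occurs only in WT ISG+ DC and number 3 only in the Rag2-/- groups. In a fit with a replicate block, the difference of WT ISG+ DC from DC1 therefore rests on WT replicate 2. WT replicate 1 adds nothing to its size there, so that fit is in effect close to leaving it out. With the replicate block, edgeR called 943 genes between WT ISG+ DC and DC1, of which 713 were among the 1209, and 258 between the ISG+ groups, and the classes held 297, 224 and 18. The uncalled log2 differences from DC1 of Aif1 (0.013), Il2ra (-0.29), Cd79b (-0.47), Eomes (-0.65), Gzmb (-8.53) and Acta2 (-3.80, edgeR adjusted p = 0.037) did not keep their sign with the block, and 19 of the 162 tested genes named lost their call.

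No called difference from DC1 of a named gene changed sign with any library left out. Uncalled log2 differences that did, with their range, were Acta2 (-3.78 to 5.73), Aif1 (-1.05 to 0.30), Anpep (-0.085 to 0.35), Ccr7 (-1.22 to 0.20), Fnip2 (-0.17 to 0.23), Gzmb (-7.42 to 2.77), Hist1h2bf (-2.98 to 0.15), Hivep2 (-0.50 to 0.033), Ifit3 (-0.011 to 1.14) and Il2ra (-0.27 to 0.40), and that of Cd79b was 0.000 to 8.78. The lower depth of DC1 replicate 3, in which 3 counts are 0.51 CPM, limits what can be said of genes near 0 in DC1.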

Other observations

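The genes in the following sentences were chosen after their values were seen, with the test described above. Receptors that place cells in tissue changed in both directions. Ccr2, the receptor that draws monocytes into tissue, was at 138 and 114 CPM in CD103+ DC1, 694 and 855 in Rag2-/- ISG+ DC and 734 and 772 in WT ISG+ DC (log2 difference 2.58 ± 0.25 SE, adjusted p = 0.00022 for WT against DC1), and the ISG+ groups overlapped. Cxcr4, the receptor for CXCL12, was at 5.85 and 7.02 CPM in CD103+ DC1, 34.4 and 57.5 in Rag2-/- ISG+ DC and 151 and 108 in WT ISG+ DC (log2 difference 4.33 ± 0.46 SE, adjusted p = 0.00034), with WT ISG+ DC above all other libraries. Cxcr3, the receptor for Cxcl9 and Cxcl10, was at 41.1 and 75.5 CPM in CD103+ DC1, 0.755 and 1.17 in Rag2-/- ISG+ DC and 0 and 2.69 in WT ISG+ DC (log2 difference -5.44 ± 1.31 SE, adjusted p = 0.027), and was low in both ISG+ groups.

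Among peptidases, Ace, the angiotensin-converting enzyme, was at 0.133 and 0.514 CPM in CD103+ DC1, 26.1 and 14.7 in Rag2-/- ISG+ DC and 10.01 and 11.8 in WT ISG+ DC (log2 difference 5.200 ± 1.15 SE, adjusted p = 0.018), and Plaur, the urokinase receptor, at 2.66 and 0 CPM in CD103+ DC1, 21.8 and 40.6 in Rag2-/- ISG+ DC and 85.9 and 85.5 in WT ISG+ DC (log2 difference 5.801 ± 0.99 SE, adjusted p = 0.0046). Dpp4, or CD26, which trims chemokines, was the 1 that fell, at 376 and 527 CPM in CD103+ DC1, 329 and 266 in Rag2-/- ISG+ DC and 102 and 171 in WT ISG+ DC (log2 difference -1.73 ± 0.32 SE, adjusted p = 0.0070). Ptgs2, the inducible cyclooxygenase of prostaglandin synthesis, was at 11.4 and 1.199 CPM in CD103+ DC1, 29.2 and 55.3 in Rag2-/- ISG+ DC and 198 and 190.4 in WT ISG+ DC (log2 difference 4.87 ± 0.79 SE, adjusted p = 0.0035), and Fabp5, a fatty acid carrier, at 2.99 and 38.03 CPM in CD103+ DC1, 79.8 and 76.1 in Rag2-/- ISG+ DC and 237 and 457 in WT ISG+ DC (log2 difference 4.12 ± 0.88 SE, adjusted p = 0.016). Cxcr3 was at a log2 difference from DC1 of -4.43 without WT replicate 1, Ace at 4.37 without DC1 replicate 2, Plaur at 5.02 without DC1 replicate 3, Ptgs2 at 7.31 without DC1 replicate 2 and 4.11 without DC1 replicate 3, and Fabp5 at 3.18 without DC1 replicate 2 and 6.87 without DC1 replicate 3. Ace lost its call from DC1 at 5.16 without Rag2-/- ISG+ replicate 2 (adjusted p = 0.051). A single remaining DC1 or WT library held under 3 counts, so that no size is given, for Cxcr3 without WT replicate 2, and for Ace without DC1 replicate 3, and for Plaur without DC1 replicate 2.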
